A study of Mus musculus with 7 samples.

Results

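The interferon-stimulated genes examined here are 39 listed mouse genes that interferons induce, together with their sensors and transcription factors, chosen by symbol and matched by Ensembl gene identifier among the 53801 genes of the deposited count tables. All 39 were matched, and 36 passed the filter on low counts. RNA sequencing measured them in mesenchymal stromal cells from the bone marrow of C57BL/6 males. The age was 8 weeks per the labels, read here as the age when dosing began. The FAPi group (n = 4) was dosed with 500 µg/kg of a FAP inhibitor in 100 µl, FAP being fibroblast activation protein, a serine protease of stromal cells. The DPBS group (n = 3) was dosed with the same volume of phosphate-buffered saline. Injections were intraperitoneal and daily for 35 days, no allele or transgene is named for either group, and the labels name the compound only as FAPi. Each library came from 7000 live cells of limb bones that carried Pdgfra and lacked CD45, Ter119 and Tie2. The labels do not say whether a library came from 1 mouse, so p-values measure the spread between these libraries.

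Interferons are secreted proteins that warn cells of infection. Type I interferons bind the receptor of Ifnar1 and Ifnar2, and the kinases Jak1 and Tyk2 then activate a complex that holds Stat2 and Irf9 and binds the interferon-stimulated response element (ISRE) of target genes. Interferon gamma signals through Ifngr1 and Ifngr2 to gamma-activated sites (GAS) in DNA and induces Irf1 and the large GTPases of the Gbp and Irg families. In marrow, interferons act on hematopoietic stem cells as well as on the stroma around them, and many target genes keep a low level of expression without infection.

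The ISRE core was searched for in the members' promoters. RefSeq windows on build GRCm38.p6, which has the coordinates of mm10, were found for 29 of the 39 members, and the 250 bases before the annotated start were searched. A core of the ISRE, the letters GAAA and again GAAA with any 2 bases between them, occurred on either strand in 14 of these 29 members (48.3%), against 936 of 27025 genes with a window (3.46%). The letters TTCNNNGAA, a core of the GAS that reads the same on both strands, occurred in 7 of 29 members (24.1%) and 2197 of all genes (8.13%). Matches of a motif to itself at overlapping positions were counted once per gene, and a match shows the letters, not a bound site. Of the members with an ISRE match, the 4 with the smallest unadjusted p in the comparison of FAPi with DPBS were Oas1a, Bst2, Irgm1 and Stat2. The window of Irgm1 lies within the GENCODE span of that gene and is not printed. The others are shown as examples of the element, with the matched bases in capitals, read 5′ to 3′ toward the start of the gene. Bst2, Irgm1 and Oas1a lie on the minus strand and Stat2 on the plus strand.
Oas1a, chr5:120907526-120907775: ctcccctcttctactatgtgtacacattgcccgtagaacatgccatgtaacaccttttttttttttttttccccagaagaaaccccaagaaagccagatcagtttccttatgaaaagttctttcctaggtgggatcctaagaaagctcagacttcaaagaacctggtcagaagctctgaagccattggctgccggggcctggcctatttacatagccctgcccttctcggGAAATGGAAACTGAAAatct
Bst2, chr8:71537473-71537722: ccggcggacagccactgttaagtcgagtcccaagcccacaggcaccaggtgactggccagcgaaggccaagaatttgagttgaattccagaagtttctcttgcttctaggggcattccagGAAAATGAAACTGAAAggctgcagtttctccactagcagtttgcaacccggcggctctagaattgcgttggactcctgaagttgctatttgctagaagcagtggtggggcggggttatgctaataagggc
Stat2, chr10:128270248-128270497: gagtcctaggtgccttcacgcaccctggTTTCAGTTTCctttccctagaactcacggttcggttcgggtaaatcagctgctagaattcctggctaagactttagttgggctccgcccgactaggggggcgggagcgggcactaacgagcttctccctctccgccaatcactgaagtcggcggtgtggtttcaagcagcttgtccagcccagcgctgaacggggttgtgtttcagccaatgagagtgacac
Oas1a, Bst2 and Irgm1 each hold a pair of overlapping matches, which begin at bases -20 and -14, -130 and -124, and -30 and -24 from the start. In Stat2 there is 1 match, at base -222, and it is written on the other strand. Estimates below 0 were found with and without a match. Of the 13 tested members with a match, 12 had a lower estimate in FAPi libraries and the median log2 difference was -0.51. Of the 15 tested members with a window and no match, 10 had a lower estimate and the median was -0.48. The difference between these sets was not tested.

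The libraries held 7492570 to 10569690 gene counts, so that 3 counts correspond to 0.269 to 0.419 CPM, the unit used below for counts scaled by library total and TMM factor. Totals did not overlap between the groups (two-sided exact permutation p = 0.0571). The lowest DPBS total, 9228260 in replicate 2, was nearly equal to the highest FAPi total, 9226841 in replicate 2. The sorted cells carried the stromal markers in every library. Pdgfra, the gene of the sort marker, was at 317 to 365 CPM in DPBS and 383 to 439.9 CPM in FAPi libraries, without overlap. Every FAPi library lay above every DPBS library for 1 of 10 stromal markers and for 3.39% of all tested genes. Cxcl12 was at 16652 to 20474 CPM in DPBS and 15945 to 21281 CPM in FAPi libraries. Ptprc, which encodes CD45, reached at most 5.28 CPM, and Tek, which encodes Tie2, at most 1.60 CPM. Transcripts of blood cells differed more. Hemoglobin genes took 0.704%, 1.52% and 0.162% of the counts in DPBS replicates 1 to 3, and 0.141% to 0.286% in the FAPi libraries (exact permutation p = 0.114). DPBS replicate 2 stood apart, with a 95% Wilson interval of 1.516% to 1.532%, which covers counting error only. All 13 erythroid markers had lower estimates in FAPi libraries, and their summed level was 1934 to 16395 CPM in DPBS and 1670.4 to 3412 CPM in FAPi libraries. Of 12 neutrophil markers 11 had lower estimates, and the sum was 657 to 2642 CPM in DPBS and 190.3 to 646 CPM in FAPi libraries, without overlap (exact permutation p = 0.0286, the smallest that 35 splits can give). Among 10 monocyte and macrophage markers, 4 were tested and 3 had lower estimates, with a sum of 155 to 398 CPM in DPBS and 101.3 to 162 CPM in FAPi libraries, most of it Lyz2. Of 10 B cell markers 8 were tested, 4 lower and 4 higher, and their sum of 627 to 1179 CPM in DPBS and 765 to 1313 CPM in FAPi libraries was mostly Ebf1, which stromal cells also express. Cd79a was at 82.2 CPM in DPBS replicate 2 and 32.1 CPM in FAPi replicate 1, and at most 4.52 CPM elsewhere. Of 8 markers of plasmacytoid dendritic cells, strong producers of type I interferon, 4 were tested, 3 lower and 1 higher. Their sum of 403 to 520 CPM in DPBS and 267 to 439 CPM in FAPi libraries was mostly Tcf4 and the member Bst2. Ccr9 was above the DPBS libraries in every FAPi library (1.04 to 2.96 CPM in DPBS and 6.33 to 27.0 CPM in FAPi libraries), Siglech had 0.951 to 5.73 CPM in DPBS and 0.646 to 0.753 CPM in FAPi libraries, and Klk1 and Pacsin1 were at 0 counts. The 10 T and NK cell markers summed to at most 3.70 CPM, nearly all of it Nkg7, and Cd3e, Cd3d, Trac, Klrd1, Gzma, Ncr1 and Cd8a were at 0 counts in every library. The 9 endothelial markers summed to 55.9 to 194 CPM in DPBS and 70.9 to 389 CPM in FAPi libraries. The parts of blood cell RNA, depth and these libraries in the values that follow were not tested, beyond leaving out each library. In bulk RNA, fewer cells of a type and less RNA per cell cannot be told apart.

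Most interferon-stimulated genes had lower estimates in FAPi than in DPBS libraries, and 0 of the 36 tested passed the threshold of edgeR's test. The median log2 difference (FAPi minus DPBS) of the 36 tested members was -0.51, against 0.01 over all 12930 tested genes. A lower estimate was found for 28 of the 36 (77.8%), where 49.4% of all tested genes had one, and 8 had a higher estimate. In 10 members (27.8%) every FAPi library lay below every DPBS library, against 3.95% of all tested genes, and in 0 members every FAPi library lay above, against 3.39%. With the size factors of RLE or DESeq2, Igtp and Xaf1 overlapped and 8 members were apart (22.2%, against 3.52% of all genes). At an unadjusted p under 0.05, edgeR's quasi-likelihood test placed 6 members lower (16.7%, against 3.69% of all genes) and 0 higher (against 4.45%). After Benjamini-Hochberg adjustment over all genes, 0 members and 0 of all genes (0%) passed the threshold of 0.05 in either direction. DESeq2 called 1 member lower, Ifi27l2a, where it called 0.394% of all genes lower. These counts describe a list that was chosen with earlier results of these data known, and members of it share regulators, so they are not separate observations. Some lists of blood cell markers also had shares above those of all genes. Of 12 tested neutrophil markers, 33.3% were lower with groups apart and 50% were lower at an unadjusted p under 0.05 (edgeR). The same shares were 7.69% and 46.2% of 13 erythroid markers and 0% and 75% of 4 monocyte and macrophage markers. They were 25% and 0% of 4 plasmacytoid dendritic cell markers, which include Bst2, and 0% and 0% of 8 B cell markers.

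**Figure D1:**
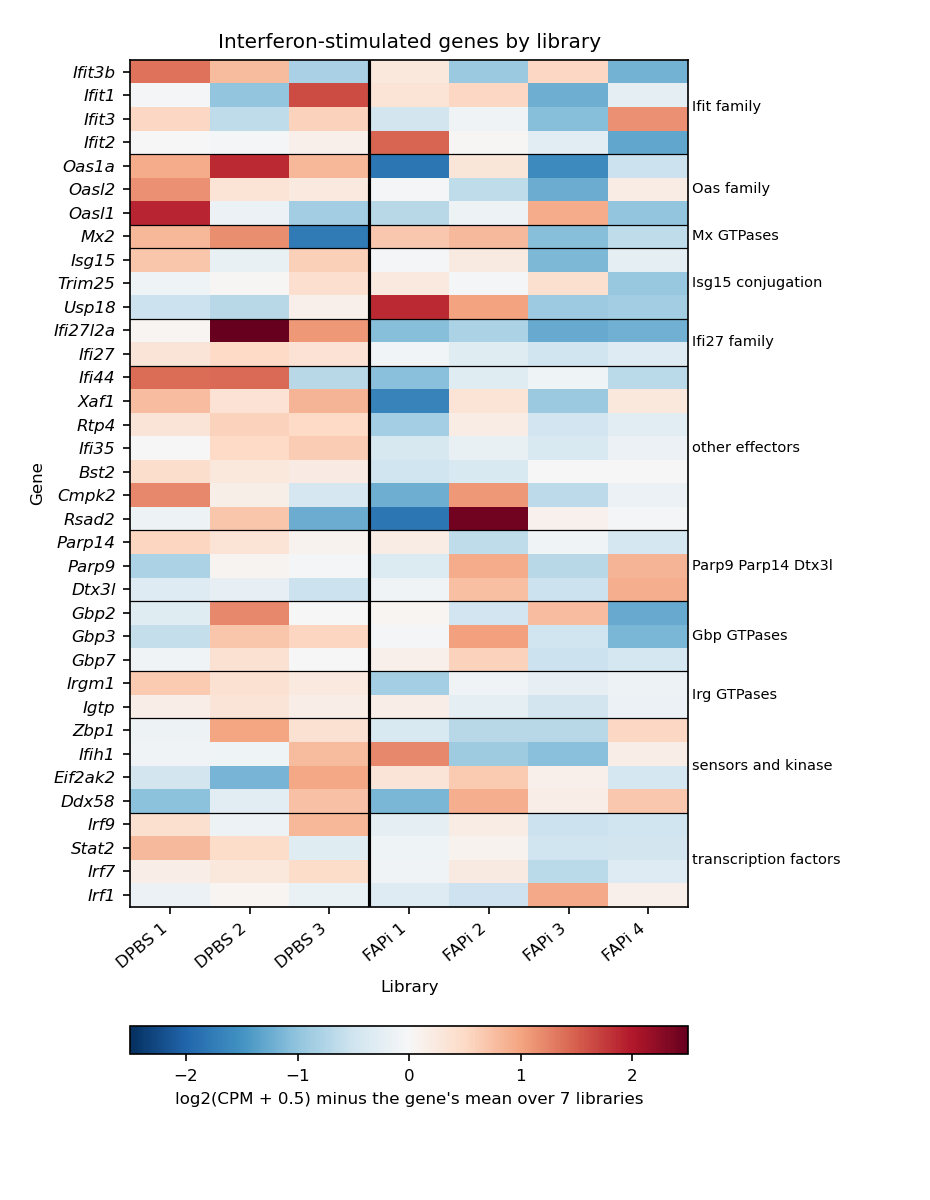
Rows are the 36 tested members grouped by family, columns are the 7 libraries, and colour is log2(CPM + 0.5) minus the mean of the gene over the libraries. The 3 DPBS columns are mostly red and FAPi replicate 3 is mostly blue, while Usp18, Rsad2, Parp9 and Dtx3l are reddest in 1 or 2 FAPi libraries.

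**Figure D2:**
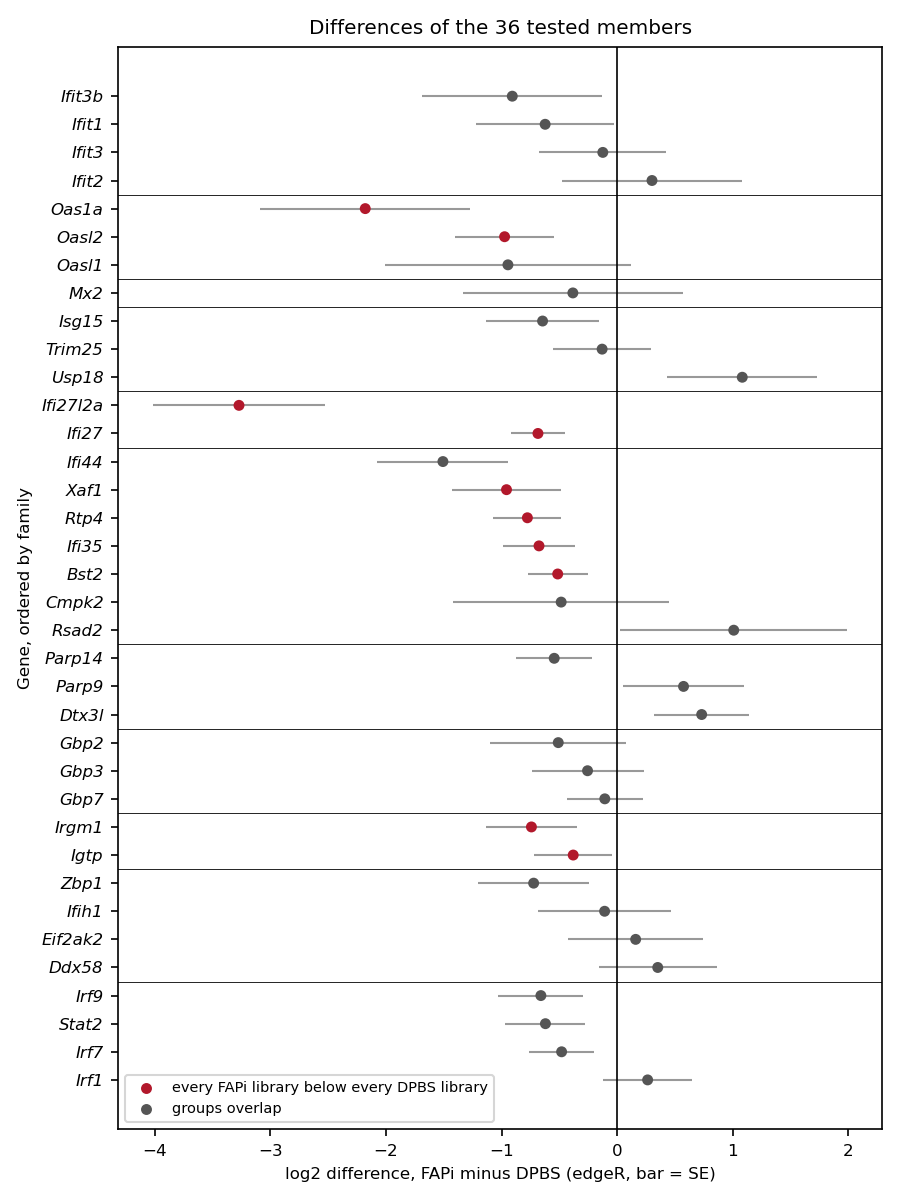
Points are log2 differences of FAPi minus DPBS from edgeR with bars of 1 standard error, one line per tested member, and red points mark members whose FAPi libraries all lie below the DPBS libraries. Of the 36 points, 28 lie left of 0, and the 10 red points are all among them.

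The shift was spread over the DPBS libraries rather than carried by 1 of them. The median deviation of the members from their own mean over the 7 libraries was 0.17, 0.33 and 0.25 (log2) in DPBS replicates 1 to 3, and -0.10, 0.06, -0.50 and -0.29 in FAPi replicates 1 to 4. FAPi replicate 2 lay closest to the DPBS libraries and FAPi replicate 3 farthest. Over all tested genes the same medians ran from -0.05 to 0.03. The highest value of a member fell in DPBS replicate 1 for 9 members (25.0%, against 11.1% of all genes). It fell in DPBS replicate 2 for 9 (25.0%, against 17.5%) and in DPBS replicate 3 for 7 (19.4%, against 13.7%). The lowest value fell in FAPi replicate 3 for 13 (36.1%, against 12.1% of all genes). DPBS replicate 3, whose hemoglobin share lay within the FAPi range, had a higher median deviation than every FAPi library, and its neutrophil marker sum of 657 CPM was also above every FAPi library (at most 646 CPM). Without DPBS replicate 2 the median log2 difference of the members was -0.52, and leaving out any other single library gave -0.68 to -0.39.

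**Figure D3:**
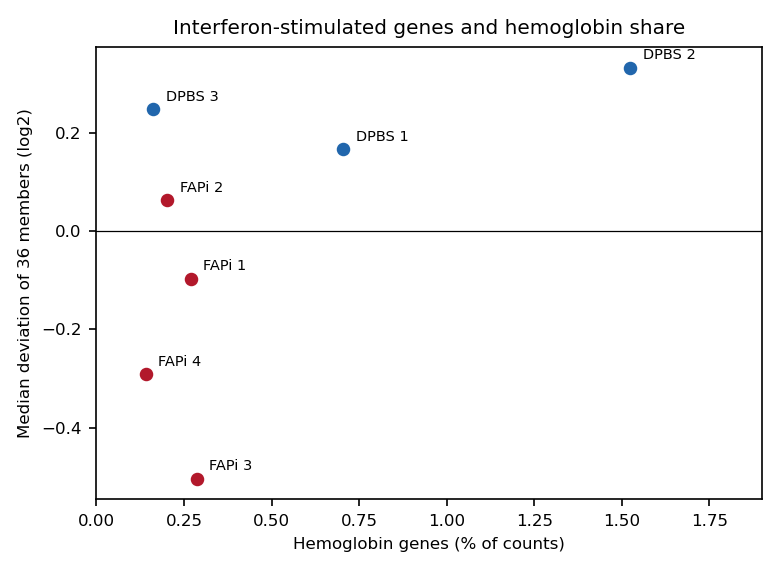
Each point is a library, blue for DPBS and red for FAPi, with the share of counts in hemoglobin genes on the horizontal axis and the median log2 deviation of the 36 members on the vertical axis. The 3 DPBS points lie above the 4 FAPi points, and DPBS 3 does so at a hemoglobin share of 0.162%, within the range of the FAPi libraries, while its neutrophil markers, not plotted, summed to more than in every FAPi library.

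At the start of the pathway, receptor genes were detected and ligand genes were not. None of the 10 listed interferon genes (Ifnb1, Ifng, Ifne, Ifnk, Ifnl2, Ifnl3 and 4 Ifna genes) had a count in any library, although the Ifna genes belong to a multigene family whose shared reads the counting may have split or dropped. The type I receptor gene Ifnar1 had 79.8, 47.3 and 63.7 CPM in the DPBS and 50.6, 33.7, 48.9 and 55.1 CPM in the FAPi libraries, with overlap between the groups (log2 difference -0.43 ± 0.35, SE). Ifnar2 differed by 0.24 ± 0.35, and the interferon gamma receptor genes Ifngr1 and Ifngr2 by -0.03 ± 0.26 and 0.18 ± 0.34. For Il10rb, a subunit of the interferon lambda receptor, the difference was 0.26 ± 0.28, and its partner Ifnlr1 was at 0 counts. The kinase genes Jak1, Jak2 and Tyk2 differed by 0.27 ± 0.27, 0.12 ± 0.38 and -0.25 ± 0.73. Of the 8 tested receptor and kinase genes, 3 had lower and 5 higher estimates with a median of 0.15, and 0 passed an unadjusted p of 0.05.

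Among the transcription factors, the 3 of the type I pathway were lower on average, and Irf1 was not. Irf7, which amplifies type I interferon production, lies on chromosome 7 (141262706 to 141266481, mm10) and had 160.4, 173 and 197 CPM in DPBS replicates 1 to 3 and 135, 167, 89.6 and 115 CPM in FAPi replicates 1 to 4. The groups overlapped only through FAPi replicate 2, and the log2 difference was -0.48 ± 0.28 (adjusted p = 0.704, edgeR). Irf9, the DNA-binding partner of Stat2, had 65.0, 45.0 and 88.0 CPM in the DPBS and 41.8, 56.3, 34.1 and 34.9 CPM in the FAPi libraries, a difference of -0.66 ± 0.37. Its exons overlap those of Rnf31 on the same strand, and those of Irf7 overlap Phrf1 on the other. Stat2 (chromosome 10, 128270559 to 128292849) had 128, 100.4 and 59.2 CPM in the DPBS and 67.7, 77.7, 51.3 and 52.9 CPM in the FAPi libraries, a difference of -0.62 ± 0.35. DPBS replicate 3 was the lowest of the DPBS libraries for Stat2 and the highest for Irf9, so the factors did not share their order across libraries. Irf1, an early target of interferon gamma that other cytokines also induce, had 69.9, 80.6 and 69.3 CPM in the DPBS and 62.0, 54.0, 151 and 85.0 CPM in the FAPi libraries. FAPi replicate 3 was the highest library for Irf1 and the lowest for Irf7 and Irf9. The estimate for Irf1 was 0.26 ± 0.39, and -0.12 without that library. Among listed signal factors and brakes outside the members, Irf2 differed by 0.64 ± 0.50 and Irf8 by 0.63 ± 0.60. In that list 3 of 8 tested genes had lower estimates and the median was 0.06.

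The sensors showed no common direction. Zbp1, a sensor of Z-form nucleic acid that can start cell death, had 22.2, 48.5 and 31.9 CPM in the DPBS and 18.5, 14.7, 14.8 and 34.9 CPM in the FAPi libraries (log2 difference -0.72 ± 0.48). Ddx58, which encodes the RNA sensor RIG-I, had 50.7, 85.4 and 173 CPM in the DPBS and 46.9, 196, 117 and 166 CPM in the FAPi libraries, and its estimate was 0.35 ± 0.51. The lowest library for Ddx58 was FAPi replicate 1 and the highest FAPi replicate 2, a wider range than between the group means. Ifih1, which encodes the RNA sensor MDA5, had 30.4 to 57.0 CPM in DPBS and 15.6 to 76.3 CPM in FAPi libraries, and its estimate of -0.11 became 0.25 without DPBS replicate 3, 0.11 without FAPi replicate 2 and 0.14 without FAPi replicate 3. Eif2ak2, the kinase PKR that stops translation on double-stranded RNA, had 7.39 to 34.1 CPM in DPBS and 12.6 to 27.4 CPM in FAPi libraries, with an estimate of 0.16 from all libraries, -0.06 without DPBS replicate 1, -0.22 without DPBS replicate 2 and -0.04 without FAPi replicate 2. In the list of other sensing genes 4 of 8 tested had lower estimates and the median was -0.11. Its smallest unadjusted p-values belonged to Dhx58, which encodes the RIG-I relative LGP2, Traf3 and Tbk1, which differed by 1.11 ± 0.58, 0.96 ± 0.69 and -0.53 ± 0.53.

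The Ifit family, whose proteins bind foreign RNA, varied between libraries more than between groups. The 4 genes lie together on chromosome 19. Ifit1 had the highest level per kilobase of exon of the family (27.8 CPM per kilobase on average) and read 58.3, 30.2 and 189 CPM in DPBS replicates 1 to 3 and 77.1, 86.7, 25.6 and 50.8 CPM in FAPi replicates 1 to 4. DPBS replicate 3 was far above the rest, and without it the log2 difference of -0.62 ± 0.60 became 0.44. Ifit3b had 17.8, 11.8 and 3.58 CPM in the DPBS and 8.03, 3.23, 9.67 and 2.65 CPM in the FAPi libraries (-0.91 ± 0.78), with DPBS replicate 3 now the lowest of its group. For Ifit3 the range was 24.8 to 57.8 CPM in DPBS and 18.2 to 86.4 CPM in FAPi libraries, and the estimate of -0.12 became 0.13 without FAPi replicate 3, 0.08 without DPBS replicate 3, and 0.03 and 0.03 without replicate 1 of DPBS and of FAPi. In this pair, 18.5% of the 150-base stretches of Ifit3 transcripts occur letter for letter in Ifit3b, so reads may have been split or dropped. Ifit2 was close to constant in DPBS libraries and had 6.65 to 7.54 CPM in DPBS and 2.51 to 19.6 CPM in FAPi libraries. Its estimate was 0.30, and -0.48 without FAPi replicate 1. None of the 4 had separate groups.

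The catalytically active members of the Oas family make the second messenger that activates RNase L. Of its 3 tested genes, Oas1a and Oasl2 had every FAPi library below every DPBS library, as 3.95% of all tested genes did. Oas1a (chromosome 5, 120896256 to 120907521) had 7.08, 13.9 and 6.50 CPM in DPBS replicates 1 to 3 and 0.628, 4.39, 0.815 and 2.23 CPM in FAPi replicates 1 to 4. All FAPi libraries lay below all DPBS libraries, and FAPi replicates 1 and 3 held 5 and 7 counts. The log2 difference was -2.18 ± 0.91 (unadjusted p = 0.036, adjusted p = 0.574, edgeR). Of the 150-base stretches of Oas1a transcripts, 32.4% also occur in the neighbouring copy Oas1g, so the count of Oas1a is uncertain. Oasl2, an Oas-like gene with ubiquitin-like domains, had 109, 62.1 and 57.8 CPM in the DPBS and 48.0, 31.3, 20.4 and 55.8 CPM in the FAPi libraries, and the difference was -0.97 ± 0.43 (unadjusted p = 0.0433, adjusted p = 0.588, edgeR). The gap between FAPi replicate 4 and DPBS replicate 3 was narrow for Oasl2. Oasl1 had 0.942 to 9.41 CPM in DPBS and 0.838 to 4.54 CPM in FAPi libraries, most of it low, and DPBS replicate 1 was the highest library. Its estimate of -0.94 became 0.57 without that library. Oas2 and Oas3 had 0 counts in all 7 libraries and were not tested, which at this depth allows up to 0.419 CPM in a library.

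The Mx genes were low. Mx1, of which C57BL/6 mice are known to carry a defective allele, had 0 to 3 counts per library and was not tested. Mx2 had 8.24, 10.5 and 0.942 CPM in the DPBS and 7.41, 8.14, 1.86 and 2.65 CPM in the FAPi libraries, with the lowest value in DPBS replicate 3. Its log2 difference was -0.38 ± 0.95, and 0.13 without DPBS replicate 2.

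With edgeR, the Ifi27 family gave the smallest p-values among the members. With DESeq2 this held for Ifi27l2a only. The unadjusted DESeq2 p was 0.0476 for Ifi27, against 0.0136 for Ifi44 and 0.0152 for Oas1a. Ifi27 and Ifi27l2a are neighbours on chromosome 12 (103434211 to 103440239 and 103442167 to 103443680) and encode small interferon-induced membrane proteins. Ifi27 was the second highest member per kilobase (129 CPM per kilobase) and had 230.4, 260.5 and 236 CPM in DPBS replicates 1 to 3 and 176, 150.05, 129.9 and 147 CPM in FAPi replicates 1 to 4. Both groups were tight, with coefficients of variation of 6.60% and 12.7%, and did not overlap. The log2 difference was -0.68 ± 0.23 (unadjusted p = 0.0139, adjusted p = 0.502, edgeR), with the lowest SE of all members, and leaving out each library gave -0.77 to -0.61. Ifi27l2a had 7.35, 67.9 and 15.6 CPM in the DPBS and 3.14, 3.88, 2.68 and 2.79 CPM in the FAPi libraries. The FAPi libraries were all close to 3 CPM, whereas DPBS replicate 2 was well above the other DPBS libraries and was also the library with the highest hemoglobin share. The difference was -3.27 ± 0.75 (unadjusted p = 0.00112, adjusted p = 0.424, edgeR), -1.87 without DPBS replicate 2. The groups stayed apart without that library, since DPBS replicate 1, the lowest, exceeded every FAPi value.

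Of the 7 other effectors, 4 had every FAPi library below every DPBS library, as 3.95% of all tested genes did. Bst2, or tetherin, which holds budding virus at the cell surface, had the highest level of all members (151 CPM per kilobase). It had 181, 159 and 154 CPM in DPBS replicates 1 to 3 and 94.7, 102, 132 and 132 CPM in FAPi replicates 1 to 4, a log2 difference of -0.51 ± 0.26 (adjusted p = 0.648, edgeR). Rtp4, an antiviral RNA-binding protein, had 162, 195 and 185 CPM in the DPBS and 72.4, 147, 93.3 and 109 CPM in the FAPi libraries, and its difference of -0.78 ± 0.29 (unadjusted p = 0.0231) came with overlap of its exons with Gm45338 on the same strand. Xaf1, a partner of the apoptosis inhibitor XIAP, had 109.6, 81.7 and 116 CPM in the DPBS and 19.8, 81.0, 33.5 and 76.8 CPM in the FAPi libraries. It was separated by less than 1 CPM between FAPi replicate 2 and DPBS replicate 2 (-0.96 ± 0.47), and its groups overlapped with RLE or DESeq2 size factors. Ifi35 had 63.2, 90.0 and 98.4 CPM in the DPBS and 48.1, 56.0, 48.8 and 57.1 CPM in the FAPi libraries, and the FAPi libraries were within a narrow range (-0.68 ± 0.31). Ifi44 overlapped between the groups because of DPBS replicate 3, with 44.3, 45.0 and 9.99 CPM in the DPBS and 7.78, 13.3, 15.3 and 10.2 CPM in the FAPi libraries. Its log2 difference was -1.51 ± 0.57 (unadjusted p = 0.0224, adjusted p = 0.534, edgeR). Rsad2, or viperin, which makes a chain-terminating nucleotide, and its neighbour Cmpk2, which supplies the substrate, lie head to head on chromosome 12. Rsad2 had 6.36, 11.5 and 2.64 CPM in the DPBS and 1.63, 39.2, 7.57 and 6.70 CPM in the FAPi libraries and Cmpk2 8.87, 4.01 and 2.54 CPM in the DPBS and 1.26, 8.14, 2.10 and 3.21 CPM in the FAPi libraries. FAPi replicate 2 was the highest FAPi library and FAPi replicate 1 the lowest for both. Without FAPi replicate 2 the estimate for Rsad2 moved from 1.01 to -0.37, and without DPBS replicate 1 that for Cmpk2 moved from -0.48 to 0.16. The rule for full values covered Ifi44 and Bst2, and Rtp4, Xaf1, Ifi35, Rsad2 and Cmpk2 were added after their values were seen.

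**Figure D4:**
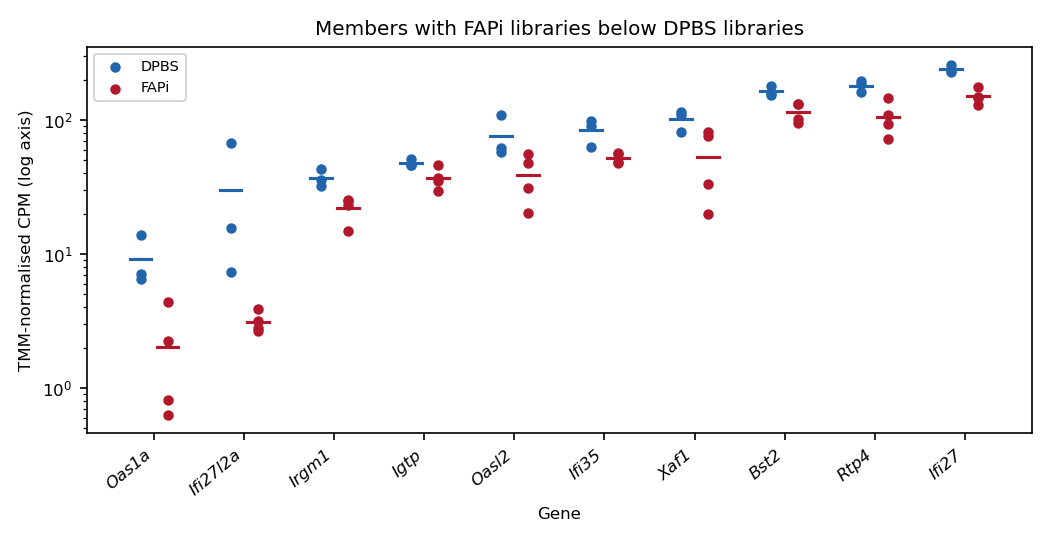
Points are TMM-normalised CPM of each library on a log axis for the 10 members whose FAPi libraries (red, n = 4) all lie below the DPBS libraries (blue, n = 3), and bars are group means. Ifi27, Rtp4 and Bst2 have tight DPBS points, Ifi27l2a has a wide DPBS range up to 67.9 CPM, and Igtp and Xaf1 are separated by a narrow gap.

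The Isg15 system carried opposite estimates for the modifier and its brake. Isg15, a ubiquitin-like protein joined to other proteins, had 30.4, 16.3 and 28.4 CPM in the DPBS and 18.2, 21.7, 8.27 and 15.8 CPM in the FAPi libraries, with the groups overlapping through DPBS replicate 2 (log2 difference -0.64 ± 0.49). Its values were added after they were seen. Usp18, which removes Isg15 from proteins and blocks signalling at the type I receptor, had 39.7, 35.7 and 63.4 CPM in DPBS replicates 1 to 3 and 212, 118, 30.9 and 31.7 CPM in FAPi replicates 1 to 4. FAPi replicates 1 and 2 were above all DPBS libraries and FAPi replicates 3 and 4 below all of them. The estimate was 1.08 ± 0.65 (adjusted p = 0.710, edgeR), and 0.38 without FAPi replicate 1. Usp18 overlaps Gm44148 on the other strand, and reads of the pair cannot be told apart where counting ignores strand. Trim25, a ligase that acts on RIG-I, had 30.7 to 44.9 CPM in DPBS and 17.0 to 44.4 CPM in FAPi libraries and an estimate of -0.13, which was 0.09 without FAPi replicate 4 and 0.05 without DPBS replicate 3.

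Parp9 and Dtx3l both had higher estimates and were highest in the same libraries. Their proteins form a complex that modifies ubiquitin and histones, and the genes are divergent neighbours on chromosome 16 whose first exons overlap. Dtx3l had 44.5, 48.1 and 38.3 CPM in the DPBS and 52.5, 93.7, 38.3 and 105 CPM in the FAPi libraries, and Parp9 had 13.4, 24.7 and 23.3 CPM in the DPBS and 18.7, 45.6, 14.6 and 43.1 CPM in the FAPi libraries. FAPi replicates 2 and 4 were the 2 highest libraries for both genes, and the other FAPi libraries lay near the DPBS values. The log2 differences were 0.73 ± 0.41 and 0.57 ± 0.52. Shared stretches made up 3.91% of Dtx3l and 4.07% of Parp9 transcripts on opposite strands. Parp14, on the same part of chromosome 16, had 68.1 to 93.0 CPM in DPBS and 41.1 to 73.1 CPM in FAPi libraries and the opposite estimate, -0.54 ± 0.33. Parp9 was added here after its values were seen.

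**Figure D5:**
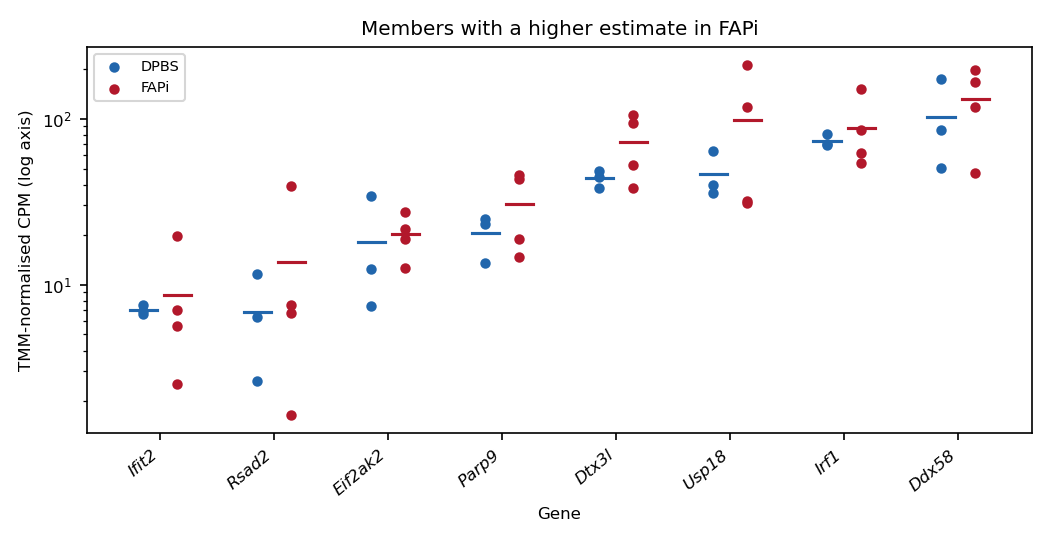
Points are TMM-normalised CPM of each library on a log axis for the 8 members with a higher estimate in FAPi (red, n = 4) than in DPBS libraries (blue, n = 3), and bars are group means. In all 8 the groups overlap, and Usp18, Rsad2, Parp9 and Dtx3l have 1 or 2 FAPi libraries above the rest.

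The interferon gamma inducible GTPases are families with some proteins that attack the membranes around intracellular microbes. Estimates were lower in all 3 listed Gbp and both listed Irg members, where 49.4% of all tested genes had a lower one. Related genes outside the members did not share a direction. Gbp5 differed by 1.29 ± 0.75, Irgm2 by 0.16 ± 0.41, Iigp1 by -0.001 ± 0.24 and Ifi47 by -0.19 ± 0.39. They were added after their values were seen. Gbp3 was the most abundant Gbp per kilobase (56.5 CPM per kilobase), with 108, 266 and 236 CPM in the DPBS and 158, 333, 116 and 74.1 CPM in the FAPi libraries. FAPi replicate 2 was the highest library and FAPi replicate 4 the lowest, and the log2 difference of -0.26 ± 0.48 became 0.01 without the latter. Gbp2 had 15.1, 43.5 and 18.8 CPM in the DPBS and 19.3, 13.2, 32.4 and 7.54 CPM in the FAPi libraries (-0.51 ± 0.59), and without DPBS replicate 2 the estimate was 0.09. Gbp7 had 120.04 to 167 CPM in DPBS and 88.3 to 191 CPM in FAPi libraries and an estimate of -0.11, which was 0.05 without the same library, 0.05 without FAPi replicate 3 and 0.03 without FAPi replicate 4. Its exons overlap Gm43802 on the same strand. The 3 Gbp members lie together on chromosome 3, and 0 of them had separate groups. Irgm1 (chromosome 11, 48861968 to 48871683), a regulator of the other family members and of autophagy, had 43.0, 35.5 and 32.5 CPM in the DPBS and 14.9, 25.5, 23.4 and 24.7 CPM in the FAPi libraries. Its log2 difference was -0.74 ± 0.39 (adjusted p = 0.668, edgeR). Igtp, also called Irgm3, had 46.3, 51.5 and 46.4 CPM in the DPBS and 46.2, 34.9, 29.8 and 36.9 CPM in the FAPi libraries, a gap of less than 1 CPM between FAPi replicate 1 and DPBS replicate 1, and a difference of -0.38 ± 0.34. With RLE or DESeq2 size factors its groups overlapped. Its exons overlap those of Irgm2 on the same strand. The difference between the 2 families was not tested.

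Other interferon-induced genes, on a wider list, had a median estimate nearer 0 than the members, a difference that was not tested. Of 32 listed genes 29 were tested, 20 had lower and 9 higher estimates, and the median log2 difference was -0.19. The groups were apart in 2 of them (6.9%, against 3.95% of all tested genes), both lower. An unadjusted p under 0.05 was found for 2, also lower (6.9%, against 3.69%), so both shares lay near those of all genes. The summed level of the list was 5348 to 6434 CPM in DPBS and 3821 to 5253 CPM in FAPi libraries, without overlap (exact permutation p = 0.0571). Lgals3bp, a secreted glycoprotein, had 282, 311 and 309.6 CPM in DPBS replicates 1 to 3 and 200.5, 185, 208 and 189.6 CPM in FAPi replicates 1 to 4 (-0.62 ± 0.21, unadjusted p = 0.0152, adjusted p = 0.509, edgeR). Ifitm3, which blocks virus entry at endosomes and was added after its values were seen, was the most abundant, with 1595, 1628 and 1734 CPM in the DPBS and 1063, 1336, 1125 and 1449.5 CPM in the FAPi libraries (-0.41 ± 0.20). Herc6, the ligase that joins Isg15 to proteins in mice, had 157, 22.5 and 19.8 CPM in the DPBS and 13.6, 27.9, 16.5 and 13.0 CPM in the FAPi libraries. Its difference of -1.90 ± 0.69 went with a single high library, DPBS replicate 1. Slfn2 had 25.4, 13.5 and 3.11 CPM in the DPBS and 1.13, 6.33, 1.63 and 6.14 CPM in the FAPi libraries (-1.88 ± 0.89).

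The median SE was smaller among members at a higher level per kilobase, with wide overlap. Above the median level of the tested members (10.1 CPM per kilobase), the median SE of 18 members was 0.40 (range 0.23 to 0.745). At or below it the median SE of 18 members was 0.58 (range 0.33 to 1.06). The median log2 differences were -0.50 and -0.53. SEs ranged from 0.23 for Ifi27 to 1.06 for Oasl1.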

How the data were processed

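RNA was sequenced as paired 150-base reads from libraries made by a modified Smart-seq2 method, per the labels' protocols. The authors deposited whole-number gene counts for each library, and STAR, HTSeq and build mm10 are named without versions in the submitters' processing notes. The deposited counts are marked rmdup, read here as removal of duplicate reads before counting, and the effect of that step on levels was not tested. The sources used here give neither annotation nor strand setting. Symbols, coordinates and exon lengths came from GENCODE release M21 on the same build, which matched 53620 of 53801 identifiers with versions ignored. The test was edgeR 4.0.16 (R 4.3.3), after filterByExpr by group with a minimum count of 10 (12930 genes left), with TMM factors and a robust glmQLFit and glmQLFTest. Replicates were treated as unpaired, since the labels do not say that numbers pair mice. Same-numbered libraries had deviations correlated at -0.00843, -0.0184 and -0.051, and other pairs at -0.0323 to 0.045. These correlations cannot exclude a pairing of mice by day or litter. The SE is the absolute log2 difference over the square root of F. Alternatives were other scalings, no filter, DESeq2 1.42.0, voom weights (limma 3.58.1), a replicate block and leaving out each library. The functions were tested on simulated data. No 2 libraries of a group agreed within sampling noise (chi-square per degree of freedom of 72.1 or more). Exact permutation tests are two-sided over 35 splits. Members and lists were chosen with earlier results of these data known. Full values were given, per family, for the tested member with the smallest p and the one with the highest level per kilobase, and for each transcription factor, and in other lists for receptors, kinases and the 3 smallest p-values, of which 1 gene is not reported here.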

Additional observations from a re-analysis of the deposited data

Results flagged for a closer look

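Rsad2 was the 1 member of 36 tested with a FAPi library set well away from its group. FAPi replicate 2 held 39.2 CPM, and the other FAPi libraries 1.63 to 7.57 CPM. The distance to the next library made up 0.842 of the whole range. About 1 in 20 groups shows such a distance by chance, or 1.8 of 36, and 3 DPBS libraries are too few for this check.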

How the results depend on the processing

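Over all genes edgeR called 0 higher and 0 lower, with 1053 at an unadjusted p below 0.05. Dropping the filter on low counts gave 5 higher and 1 lower, DESeq2 gave 84 and 51 (663 adjusted p-values were NA), and voom weights gave 1 higher. With single libraries omitted, 0 to 2 were higher and 0 to 1 lower, all of these without DPBS replicate 3. Members with a lower estimate (28) numbered 24 to 29, their median (-0.51) ran from -0.68 to -0.39, and members with separate groups (10, or 27.8%, against 3.95% of all genes) numbered 9 to 15 when 1 library was left out, 15 (41.7%, against 8.63%) without DPBS replicate 3. They numbered 8 with RLE or DESeq2 size factors and 11 with upper-quartile scaling. The median of all genes was 0.04 under RLE and -0.03 under upper-quartile scaling. With the replicate block, 26 members had a lower estimate, the median was -0.49, and 0 genes passed (718 at an unadjusted p under 0.05). The labels do not say that numbers pair the libraries, separate groups have no value under the block, and FAPi replicate 4 was a level of its own. The block turned 2 estimates, to 0.12 for Mx2 and 0.0942 for Trim25, and voom weights turned Ifit2 to -0.0898. Of 468 member values under alternatives, 27 changed sign, in 14 members. Leaving out each library gave -1.05 to 0.44 for Ifit1, -0.48 to 0.61 for Ifit2, -0.73 to 0.13 for Ifit3, -0.90 to 0.13 for Mx2, -1.63 to 0.57 for Oasl1, -0.12 to 0.43 for Irf1, -0.37 to 1.61 for Rsad2, -0.76 to 0.25 for Ifih1, -0.943 to 0.0925 for Gbp2, -0.823 to 0.00768 for Gbp3, -0.378 to 0.0512 for Gbp7, -0.293 to 0.0941 for Trim25, -0.22 to 1.02 for Eif2ak2 and -1.24 to 0.16 for Cmpk2. The cause was not tested. DESeq2 called Ifi27l2a (adjusted p = 0.0034), and its adjusted p under the other alternatives was 0.157 to 0.804, 0.378 to 0.804 of these with 1 library left out.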
